A study of Homo sapiens with 12 samples.

Results

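The genes described here encode the heavy and light chains of the antibody molecule, together with the joining chain and the surrogate-like light chain gene *IGLL5*. They were chosen by symbol: every gene of either count table whose name starts as an immunoglobulin heavy, kappa or lambda variable, diversity, joining or constant gene, plus *JCHAIN* (named *IGJ* in the tables), *IGLL1* and *IGLL5*. The rule found 42 of the 22441 genes in the MEC1 table and 32 of the 17144 in the JVM2 table, which makes 55 of 23533 genes in all, with 19 in both. *IGLL1* is in neither table, and *IGHMBP2*, a DNA helicase gene whose symbol starts like theirs, was not counted.

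RNA was sequenced from 4 populations, in 3 biological replicates each, of MEC1 and JVM2, which are cultured B cell lines from human B cell neoplasms. MEC1-2B17 and JVM2-2B17 cells received the coding sequence of *UGT2B17*, a glucuronosyltransferase, in pcDNA6 by electroporation and were selected and grown in blasticidin. JVM2-CTRL cells carried empty pcDNA6 and were grown in blasticidin too. MEC1-CTRL cells carried a stable shRNA against *UGT2B17* and were grown in puromycin, so the MEC1 arms differed in construct and antibiotic as well as in *UGT2B17*, and these cannot be told apart. The methods do not say whether a population was a single clone or a pool, and libraries were sequenced at more than 1 site with the site of each sample not given. Nothing but the label tells how far the replicates are separate cultures, so *P*-values measure the spread between these samples.

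Each B cell builds its own antibody by joining a variable (V), a diversity (D) and a joining (J) segment in the heavy chain locus, and a V and a J segment in a kappa or lambda light chain locus. The joined V segment is transcribed together with a constant gene, and alternative splicing and cleavage of the same long transcript give IgM or IgD. Class switch recombination later replaces the mu constant gene with a gamma, epsilon or alpha gene farther downstream and deletes the DNA between. Cells of 1 clone therefore share a V gene and a light chain, and a line is often described by its isotype, its light chain and its V genes.

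The targeted gene was checked first. *UGT2B17* stood at 10.4 to 11.8 CPM (counts scaled to a common effective library size, the unit used throughout) in MEC1-CTRL and 20.1 to 22.7 CPM in MEC1-2B17, and at 26.2 to 29.8 CPM in JVM2-CTRL and 35.3 to 45.3 CPM in JVM2-2B17. Libraries held 31762649 to 37744991 counts in MEC1 and 8809179 to 11231330 in JVM2. All 7 B cell markers examined, *MS4A1* and *CD79A* among them, were in both tables, with a summed level of 2290 to 2510 CPM in MEC1 and 1360 to 1600 CPM in JVM2. Of 7 T cell markers none was in the JVM2 table, and 6 were in the MEC1 table at 38.6 to 42.2 CPM in all. Most of that was *TRBC2*, at a mean of 39.85 CPM in MEC1-CTRL and 36.94 CPM in MEC1-2B17. *CD3E*, the defining T cell marker, held 0 to 4 counts per MEC1 library. The 6 plasma cell markers summed to 638 to 668 CPM in MEC1-CTRL and 756 to 779 CPM in MEC1-2B17, and to 1020 to 1050 CPM in JVM2-CTRL and 722 to 761 CPM in JVM2-2B17. Of these 6 genes, 3 rose and 2 fell in MEC1-2B17, with *PRDM1* and *TNFRSF17* the lower ones, and none rose and 4 fell in JVM2-2B17. The part of this list in the immunoglobulin levels was not tested. Of 7 myeloid and natural killer cell markers, 6 were in the MEC1 table. They summed to 24.5 to 27.2 CPM in MEC1-CTRL and 9.24 to 10.2 CPM in MEC1-2B17. Most of this was *GNLY*, at a mean of 19.59 and 4.939 CPM. The 4 in the JVM2 table summed to at most 4.39 CPM. Of the defining myeloid markers, *MPO* was in neither table, and *LYZ* was low in both. In MEC1 *LYZ* held 17, 9 and 13 counts in MEC1-CTRL and 18, 15 and 18 in MEC1-2B17.

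Sequences of 2 kinds are shown for these genes and were read from the hg38 genome at GENCODE v44 positions. Whether they bear on the changes in counts was not tested. The first are the D segments that were counted as separate genes in MEC1, which in their unjoined form are flanked by recombination signals that a V(D)J joint removes. Capitals mark the segment, with 28 bases of flank on either side, for chr14:105881511-105881584 and chr14:105881006-105881081, both on the minus strand.
IGHD6-25: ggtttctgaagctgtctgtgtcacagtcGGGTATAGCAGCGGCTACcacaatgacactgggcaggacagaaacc
IGHD1-26: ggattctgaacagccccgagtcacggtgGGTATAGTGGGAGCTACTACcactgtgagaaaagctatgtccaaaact
The same is shown for the end of the J segment *IGLJ1*, at chr22:22893759-22893818 on the plus strand. Capitals mark the heptamer, the 7-base part of its recombination signal. The annotated gene is 127 bases long and begins upstream of that heptamer.
IGLJ1: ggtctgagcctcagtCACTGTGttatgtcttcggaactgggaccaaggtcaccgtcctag
The second kind is the octamer ATGCAAAT (ATTTGCAT on the other strand), the site that the OCT proteins bind in V gene promoters. It was searched on both strands from 250 bases before to 50 bases after the annotated start of a gene. It lay in 1.77% of 35116 RefSeq promoters. Among V genes annotated as genes rather than pseudogenes, it lay in 88.7% of the 53 IGHV, 63% of the 46 IGKV and 81.1% of the 37 IGLV genes. It also lay in 28.4% of the 81 IGHV pseudogenes, and in 25 of the 34 V genes and V pseudogenes that are members of the tables. It is shown in capitals for the leading V genes of JVM2, *IGHV3-20* (chr14:106211498-106211545, minus strand) and *IGLV2-14* (chr22:22758613-22758660, plus strand), and for *IGHV4-31* (chr14:106349805-106349852) and *IGHV1-24* (chr14:106277070-106277117), both on the minus strand, which changed in MEC1.
IGHV3-20: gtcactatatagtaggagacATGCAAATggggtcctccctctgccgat
IGLV2-14: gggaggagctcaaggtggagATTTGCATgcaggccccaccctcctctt
IGHV4-31: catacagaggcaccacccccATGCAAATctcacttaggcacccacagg
IGHV1-24: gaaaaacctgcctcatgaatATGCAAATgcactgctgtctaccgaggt
No match to these letters was found in that window of *IGKV4-1*, the leading V gene of MEC1, of *IGKV3-11* or of the pseudogene *IGHV1-68*.

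Most immunoglobulin genes that could be tested changed in MEC1-2B17 cells, in both directions. Of the 42 members, 24 passed the filter on low counts, and 10 rose, 11 fell and 3 did not pass the threshold (edgeR's quasi-likelihood test, Benjamini-Hochberg adjusted *P* below 0.05 over the 16581 genes tested). That is 87.5% of the members tested. The background was high, with 41.7% of all genes tested called, 20% as higher and 21.6% as lower. The 2 arms did not overlap for 19 of the 24, against 50.1% of all genes tested. The median log2 fold change of the members was -0.22, beside 0.00 for all genes. The other 18 members had too few counts to be tested.

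The mu and kappa constant genes led in both MEC1 arms. Taken per kb of exon, so that genes can be compared, *IGHM* (ENSG00000211899, chr14:105851705-105856218), the mu constant gene, made up 87.3% ± 0.41 (SD, *n* = 3) of the heavy chain constant signal in MEC1-CTRL and 97.6% ± 0.12 in MEC1-2B17. *IGHM* ranked 74th by CPM per kb among the 21798 annotated genes in MEC1-CTRL and 41st in MEC1-2B17. Its level was 899.7, 885 and 956 CPM in MEC1-CTRL and 1514, 1351 and 1502 CPM in MEC1-2B17. Every MEC1-2B17 library was above every MEC1-CTRL library, and the rise was 1.59-fold (log2 fold change 0.67 ± 0.04 SE, adjusted *P* = 1.03e-10 by edgeR's quasi-likelihood test).

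The gamma genes fell in MEC1-2B17 cells while *IGHM* rose. *IGHG1* (ENSG00000211896, chr14:105736343-105743071), which encodes the constant region of IgG1, was at 162, 168 and 174 CPM in MEC1-CTRL and at 27.5, 24.8 and 29.9 CPM in MEC1-2B17. The arms lay far apart, with a within-arm SD of 0.103 on the log2 scale. The fall was 6.13-fold (log2 fold change -2.62 ± 0.05 SE, adjusted *P* = 3.85e-17). Its share of the heavy chain constant signal was 10.9% ± 0.24 in MEC1-CTRL and 1.24% ± 0.06 in MEC1-2B17, and the log2 ratio of *IGHG1* to *IGHM* went from -3.01 to -6.30, a difference of -3.29. For these shares and ratios the exact two-sided permutation test of 3 against 3 libraries gave *P* = 0.1, the smallest it can give. In bulk RNA, fewer cells with the transcript and less of it per cell cannot be told apart.

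The next gamma genes followed the same direction. *IGHG3* (IgG3) was at 5.00, 5.90 and 6.54 CPM in MEC1-CTRL and 1.60, 1.04 and 1.42 CPM in MEC1-2B17, without overlap, and fell by 2.09 on the log2 scale (SE 0.15, adjusted *P* = 2.36e-09 by the same test). The gamma pseudogene *IGHGP* held 27, 19 and 26 counts in MEC1-CTRL and 6, 4 and 3 counts in MEC1-2B17 (log2 fold change -2.33 ± 0.35). *IGHG2* (IgG2) held 24, 46 and 37 counts against 15, 22 and 17, and its lowest MEC1-CTRL value lay inside the MEC1-2B17 range. Its fall of 0.88 on the log2 scale (adjusted *P* = 0.0183) no longer passed without MEC1-CTRL replicate 2 (adjusted *P* = 0.118), MEC1-CTRL replicate 3 (0.0534), MEC1-2B17 replicate 1 (0.0785) or MEC1-2B17 replicate 3 (0.0651). These genes share sequence, by a comparison of immunoglobulin gene transcripts only. Of all 50-base stretches of *IGHG1*, 54.4% occur in another such gene, and 35.4% of all occur in *IGHG3*. Of the stretches of *IGHG3*, *IGHG2* and *IGHGP*, 45.8%, 47% and 38.8% occur in another such gene. Reads of the far more abundant *IGHG1* may thus count toward the others, while no such stretch of *IGHM*, *IGHD*, *IGKC* or *IGKV4-1* is shared.

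The remaining heavy chain constant genes of MEC1 split by place. *IGHD*, which encodes the delta constant region of IgD and lies next to *IGHM*, was at 2.55, 3.43 and 2.56 CPM in MEC1-CTRL and 6.99, 7.32 and 7.32 CPM in MEC1-2B17. The arms did not overlap, and the rise was 2.53-fold (log2 fold change 1.34 ± 0.12 SE, adjusted *P* = 2.04e-08). *IGHA1* (IgA1) was at 6.34, 7.32 and 6.54 CPM against 3.47, 3.65 and 4.70 CPM, a fall of 0.78 on the log2 scale (adjusted *P* = 2.26e-05). *IGHE* (IgE) held 11, 8 and 8 counts against 20, 16 and 15 (log2 fold change 1.01 ± 0.31), and *IGHA2* (IgA2) held 18, 24 and 30 against 43, 38 and 45 (log2 fold change 0.91 ± 0.23). Both rose, from low levels, with adjusted *P* = 0.0118 and 0.00371, and that of *IGHE* was 0.0557 without MEC1-2B17 replicate 1 and 0.0924 by DESeq2. Of the 50-base stretches of *IGHA1*, 32.5% occur in *IGHA2*.

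**Figure D1:**
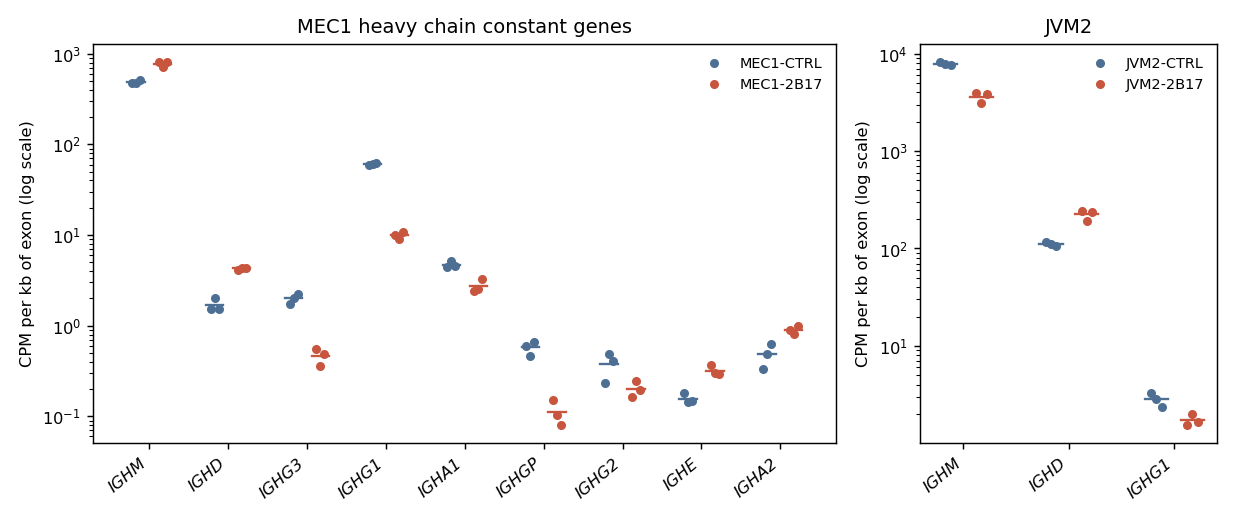
Level of each heavy chain constant gene in every library, in CPM per kb of exon on a log axis, in the order of the genes along the locus from *IGHM*. Points are single libraries and lines the mean of 3. In MEC1, *IGHG3* to *IGHG2* lie lower in MEC1-2B17 and *IGHM*, *IGHD*, *IGHE* and *IGHA2* higher. In JVM2, *IGHM* and *IGHG1* lie lower and *IGHD* higher, and *IGHG3* is left out because 1 library held no count.

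Laid out along chromosome 14, the fitted changes of neighbouring constant genes of MEC1 mostly had the same sign. *IGHM* and *IGHD*, whose starts lie 10.5 kb apart, rose. The 5 genes that start 84.8 to 211 kb downstream of the start of *IGHM*, namely *IGHG3*, *IGHG1*, *IGHA1*, *IGHGP* and *IGHG2*, fell. *IGHE* and *IGHA2*, at 255 and 268 kb, rose. Not all of these calls are firm. That of *IGHG2* was lost in 4 of the fits with 1 library left out, and that of *IGHE* by DESeq2 (adjusted *P* = 0.0924). Of the 50-base stretches, 34.4% of *IGHG3*, 33.2% of *IGHG2* and 20.1% of *IGHGP* occur in *IGHG1*. Their falls may thus not be independent of that of *IGHG1*. Of 23 genes other than immunoglobulin genes tested within 1 Mb of the locus in MEC1, 7 rose and 4 fell, which is 47.8% beside 41.7% of all genes, with a median log2 fold change of 0.04. In JVM2, 1 rose and 1 fell of 15 such genes, which is 13.3% beside 29.3%, with a median of -0.11. Within 1 Mb of the kappa locus, 3 rose and none fell of 5 in MEC1 (60%), and 2 rose and 1 fell of 7 in JVM2 (42.9%). Within 1 Mb of the lambda locus, 7 rose and 6 fell of 38 in MEC1 (34.2%), and 4 rose and 5 fell of 22 in JVM2 (40.9%).

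**Figure D2:**
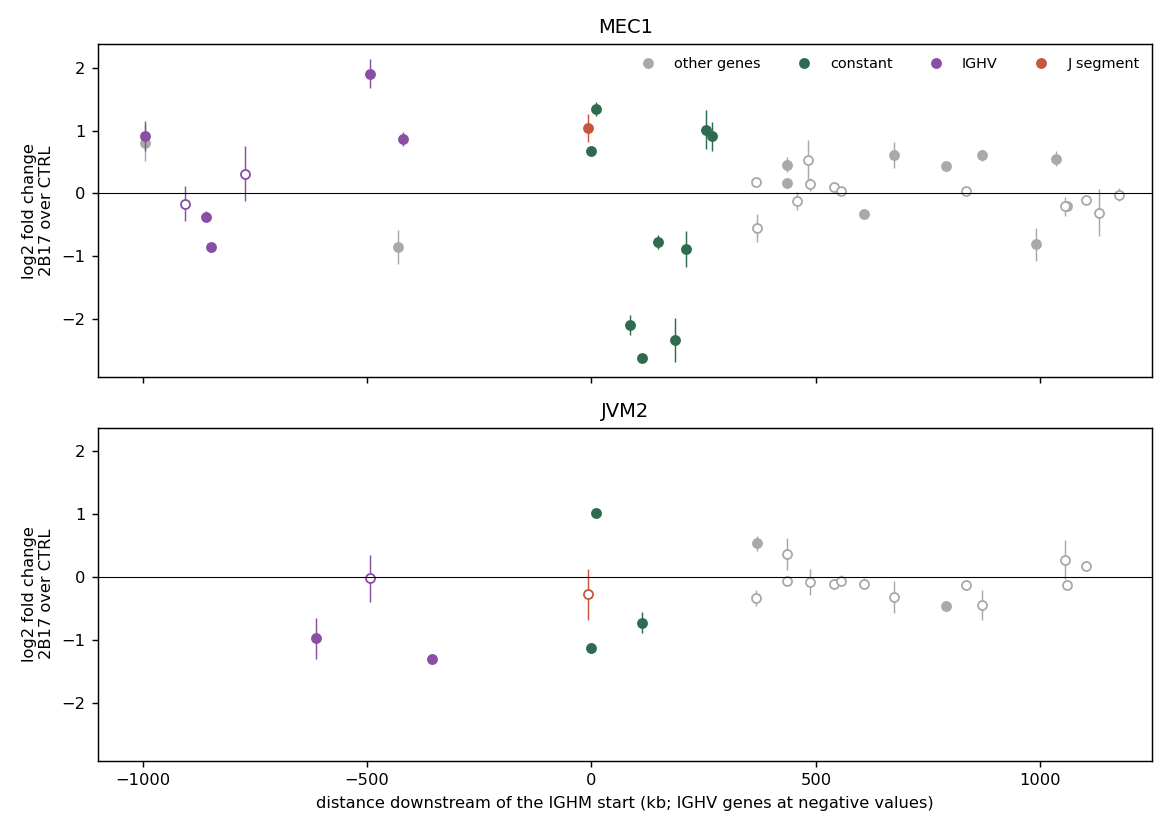
Log2 fold change of 2B17 over CTRL (bars, SE) along the heavy chain locus against distance from the start of *IGHM* in kb, for tested genes with over 3 counts in each arm. Filled points passed the threshold. In MEC1 the constant genes from 84.8 to 211 kb lie below 0 and those on both sides of them above 0. Grey points are other genes.

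The light chain transcripts of MEC1 were kappa in both arms. *IGKC* (chr2:88857161-88857683), the only kappa constant gene, was at 445, 421 and 446 CPM in MEC1-CTRL and 792, 749 and 825 CPM in MEC1-2B17. No lambda constant gene is listed in the MEC1 table, so *IGKC* made up 100% of the light chain constant signal. *IGKV4-1* (chr2:88885397-88886153), the V gene of the kappa locus that lies nearest to its J segments, was at 545, 513 and 551 CPM against 984, 946 and 978 CPM. The 2 genes rose alike and without overlap of arms, by 0.85 ± 0.04 and 0.85 ± 0.03 on the log2 scale (adjusted *P* = 2.01e-12 and 4.22e-13). *IGKV4-1* made up 99.6% ± 0.10 of the light chain V signal in MEC1-CTRL and 99.9% ± 0.04 in MEC1-2B17. The summed light chain V signal was 120% of the constant signal in both arms, per kb.

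Few other light chain genes were counted in MEC1. *IGKJ5*, the kappa J segment nearest to *IGKC*, was at 8.73, 7.90 and 7.65 CPM against 7.079, 6.524 and 6.403 CPM. It fell by 0.28 on the log2 scale (adjusted *P* = 0.0143), a direction opposite to that of *IGKC*, and its adjusted *P* was 0.0829 without MEC1-CTRL replicate 1 and 0.0659 without MEC1-2B17 replicate 3. *IGLV6-57* held 18, 31 and 30 counts against 12, 9 and 16 (log2 fold change -0.98 ± 0.32, adjusted *P* = 0.0176), and that call was lost without MEC1-CTRL replicate 2 or 3 or MEC1-2B17 replicate 1 or 2 (adjusted *P* from 0.0542 to 0.0813). *IGLV1-51*, *IGLV5-52* and *IGKV1OR2-108*, an orphan V segment outside the kappa locus, held 3 to 12, 1 to 7 and 2 to 9 counts per library and were not tested.

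The heavy chain V genes of MEC1 gave no single leading gene. The highest per kb was *IGHV1-68*, annotated as a pseudogene, with 560, 541 and 488 counts in MEC1-CTRL and 272, 285 and 258 in MEC1-2B17. It fell by 0.86 on the log2 scale (SE 0.07, adjusted *P* = 1.13e-08), and its share of the IGHV signal was 40.6% ± 3.19 and 25.5% ± 2.41. *IGHV1-69* came next, with 342, 280 and 283 counts against 207, 218 and 225 (log2 fold change -0.37 ± 0.09, adjusted *P* = 0.00194). *IGHV1OR15-1*, an orphan segment on chromosome 15, held 252, 236 and 171 counts against 179, 142 and 178. Its log2 fold change was -0.29 ± 0.12 (adjusted *P* = 0.0585), and the value passed without MEC1-CTRL replicate 3 (adjusted *P* = 0.00758). Of the 50-base stretches, 77.7% of *IGHV1-69* and all of *IGHV1OR15-1* occur in another annotated gene. The summed IGHV signal was 21.7% of that of *IGHM* per kb in MEC1-CTRL and 12.04% in MEC1-2B17.

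**Figure D3:**
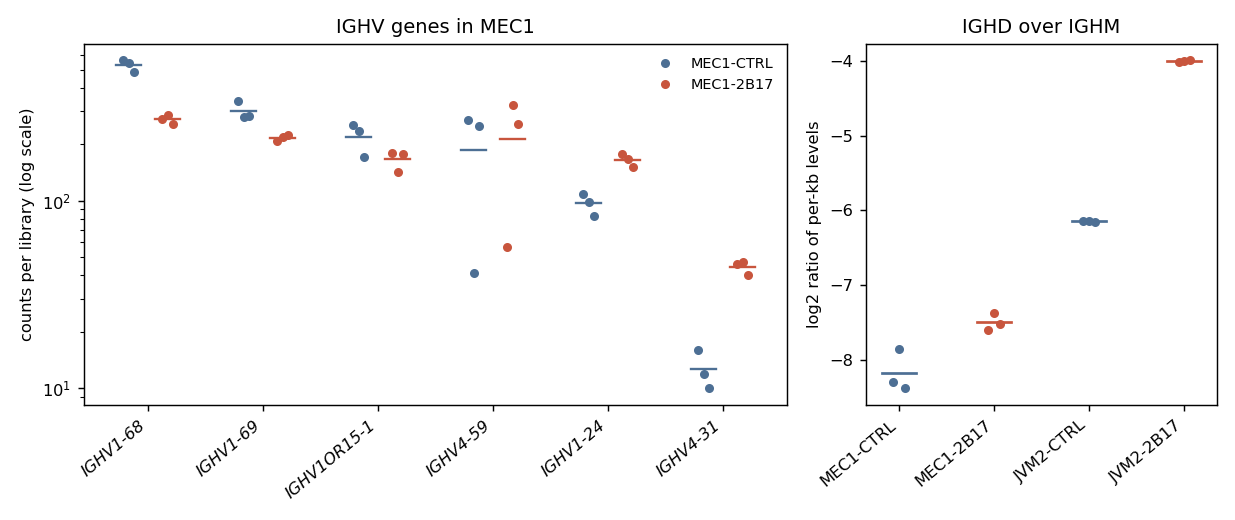
Counts per library of 6 IGHV genes in MEC1 on a log axis (left), and the log2 ratio of the per-kb levels of *IGHD* and *IGHM* in each library of both lines (right). Points are libraries and lines the mean of 3. *IGHV4-59* is low in 1 library of each MEC1 arm, and the ratio in JVM2-2B17 lies near -4.00 in all 3 libraries.

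*IGHV4-59* stood apart by its spread and is named because of it, after its values were seen. It held 268, 41 and 249 counts in MEC1-CTRL and 57, 325 and 258 in MEC1-2B17. MEC1-CTRL replicate 2 and MEC1-2B17 replicate 1 were low, the other 4 libraries agreed within 249 to 325, and the arms overlapped. The within-arm SD of its log2 CPM was 1.41, the third largest of 15280 genes compared in MEC1, and its log2 fold change was 0.31 ± 0.44 (adjusted *P* = 0.612). Its near copy *IGHV4-61*, in which 63.7% of the 50-base stretches of *IGHV4-59* are found, held 2 to 4 counts in every library. Their *IGHM* levels were 885 and 1514 CPM, the lowest and the highest of their arms. With both of them left out, 21 members were still called in MEC1, 11 as higher and 10 as lower.

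Other IGHV genes rose in MEC1-2B17. *IGHV4-31* held 16, 12 and 10 counts in MEC1-CTRL and 46, 47 and 40 in MEC1-2B17, a 3.74-fold rise (log2 fold change 1.90 ± 0.23, adjusted *P* = 2.05e-06). *IGHV1-24* held 109, 99 and 83 counts against 177, 166 and 151 (log2 fold change 0.87 ± 0.11). *IGHV5-78*, annotated as a pseudogene and the most distal member in the table, held 20, 32 and 17 against 37, 38 and 46 (log2 fold change 0.91 ± 0.24). The arms overlapped for none of these 3. All 3 hold the octamer within the window searched, as does *IGHV1-69*, which fell. In all, 8 of 18 IGHV members of MEC1 were tested, and 3 rose, 2 fell and 3 did not pass.

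By ratio, counts at D segments differed more between the MEC1 arms than those of any other member. *IGHD6-25* held 21, 20 and 23 counts in MEC1-CTRL and 1, 0 and 0 in MEC1-2B17, which is 64 counts against 1. Scaled by library size, the level in MEC1-CTRL was 59.4 times that in MEC1-2B17, with an exact 95% counting interval of 10.3 to 2380. *IGHD1-26*, the neighbouring segment, held 8, 9 and 10 counts against 0, 0 and 1, a ratio of 25.1 (interval 4.13 to 1030). It was below the filter and is named after its values were seen. Every MEC1-CTRL library held counts at both segments, and MEC1-2B17 held 1 count at each over 3 libraries. The gene listed as AL122127.25, annotated as a long noncoding RNA among the D segments on the opposite strand, held 2, 5 and 4 counts against 0, 0 and 1. The J pseudogene *IGHJ3P*, 7.25 kb upstream of *IGHM*, moved the other way, with 31, 18 and 21 counts against 52, 43 and 39 (log2 fold change 1.04 ± 0.22, adjusted *P* = 0.000719). The setting for strand in the counting is not given in the sources used here, so overlapping and antisense transcripts cannot be told apart from these segments. Intervals cover counting error only.

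*JCHAIN* (chr4:70655541-70681817), which encodes the joining chain that links IgM and IgA into polymers, fell in MEC1-2B17. It was at 293, 282 and 299 CPM in MEC1-CTRL and 155, 151 and 146 CPM in MEC1-2B17, without overlap. The fall was 1.93-fold (log2 fold change -0.95 ± 0.04 SE, adjusted *P* = 4.25e-13), while the mu and kappa chains rose. *IGLL5*, a lambda locus gene that resembles the surrogate light chain, held 15, 8 and 16 counts against 7, 4 and 7 and was not tested in MEC1.

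Counted together, the 42 members took 0.243%, 0.235% and 0.249% of all counts in MEC1-CTRL and 0.350%, 0.328% and 0.354% in MEC1-2B17. In JVM2 the shares moved in the other direction, at 2.54%, 2.43% and 2.36% in JVM2-CTRL and 1.299%, 1.11% and 1.27% in JVM2-2B17. In each line the arms did not overlap (exact permutation *P* = 0.1, the smallest possible).

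Most immunoglobulin genes that could be tested in JVM2-2B17 cells were lower. Of 32 members, 16 passed the filter, and 1 rose, 9 fell and 6 did not pass. That is 62.5% called, against 29.3% of the 13021 genes tested in JVM2, of which 14.1% were called as higher and 15.3% as lower. The arms did not overlap for 10 of the 16 members, against 45.2% of all genes tested, and the median log2 fold change was -0.76 for the members and 0.00 for all genes.

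The mu and lambda constant genes led in both JVM2 arms. *IGHM* was the 3rd highest of 16799 annotated genes by CPM per kb in JVM2-CTRL and the 6th in JVM2-2B17. Its level was 15300, 14650 and 14340 CPM in JVM2-CTRL and 7324, 5764 and 7131 CPM in JVM2-2B17, without overlap. The fall was 2.19-fold (log2 fold change -1.13 ± 0.08 SE, adjusted *P* = 3.27e-07). *IGHD* was the member that rose, from 194, 185 and 179.9 CPM to 405, 324 and 402 CPM (log2 fold change 1.02 ± 0.08, adjusted *P* = 1.54e-06). Its share of the heavy chain constant signal was 1.39% ± 0.008 in JVM2-CTRL and 5.87% ± 0.05 in JVM2-2B17. *IGHG1* was low throughout, at 9.07, 7.84 and 6.58 CPM against 4.26, 5.52 and 4.53 CPM. It fell by 0.73 on the log2 scale (SE 0.17, adjusted *P* = 0.00711), and its share of the constant signal was 0.0353% ± 0.0045 in JVM2-CTRL and 0.0462% ± 0.0129 in JVM2-2B17. *IGHG3* held 0 to 6 counts and was not tested, and no other gamma, alpha or epsilon gene is in the JVM2 table.

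The balance of IgD and IgM shifted toward *IGHD* in both lines. The log2 ratio of the per-kb level of *IGHD* to that of *IGHM* was -8.31, -7.86 and -8.39 in MEC1-CTRL and -7.60, -7.37 and -7.52 in MEC1-2B17, a 1.61-fold higher ratio. In JVM2 it was -6.14, -6.15 and -6.16 in JVM2-CTRL and -4.02, -4.00 and -3.99 in JVM2-2B17, a 4.44-fold higher ratio, because *IGHD* rose while *IGHM* fell. The arms did not overlap in either line, with the exact permutation *P* of 0.1 that the design allows.

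The lambda chain of JVM2 fell with the heavy chain. *IGLC2* (chr22:22900976-22901437), a lambda constant gene, was at 3947, 3507 and 3217 CPM in JVM2-CTRL and 2221, 1893 and 2068 CPM in JVM2-2B17 (log2 fold change -0.79 ± 0.08, adjusted *P* = 8.35e-06). *IGLV2-14* (chr22:22758700-22759218) was at 4381, 4140 and 4004 CPM against 2062, 1917 and 1941 CPM (log2 fold change -1.08 ± 0.05, adjusted *P* = 1.55e-08). The arms did not overlap for either gene. The summed light chain V signal was 134% ± 7.47 (SD) of the constant signal in JVM2-CTRL and 108% ± 5.54 in JVM2-2B17, per kb. *IGLV2-14* made up 99.3% ± 0.02 of the light chain V signal in JVM2-CTRL and 98.5% ± 0.07 in JVM2-2B17. *IGLC3* held 7, 8 and 7 counts against 3, 3 and 2 and *IGLC5* 5, 1 and 2 against 1, 1 and 1, both below the filter. *IGLC2* has 58.1% of its 50-base stretches in *IGLC3*, and *IGLV2-14* has 51.8% in other V genes, so the counts of close relatives are uncertain.

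Kappa transcripts were few beside lambda in JVM2, and *IGKC* and *IGKV3-11* did not pass the threshold. *IGKC* was at 90.2, 84.8 and 82.5 CPM in JVM2-CTRL and 95.4, 68.5 and 84.2 CPM in JVM2-2B17 (log2 fold change -0.05 ± 0.10, adjusted *P* = 0.747). *IGKV3-11* was at 27.5, 25.0 and 25.7 CPM against 25.6, 25.9 and 25.7 CPM (log2 fold change -0.02 ± 0.08, adjusted *P* = 0.887). The arms overlapped for both. The kappa share of the light chain constant signal went from 2.09% ± 0.12 to 3.41% ± 0.29, without overlap (exact permutation *P* = 0.1). *IGKV4-1*, the leading V gene of MEC1, held 42, 42 and 28 counts against 24, 14 and 22 in JVM2 (log2 fold change -0.83 ± 0.24, adjusted *P* = 0.0198), a call lost without JVM2-CTRL replicate 1 (adjusted *P* = 0.0796) or 2 (0.0703). The other light chain V genes of the JVM2 table, *IGLV6-57* and *IGLV3-19* among them, held 9 counts or fewer in each library.

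**Figure D4:**
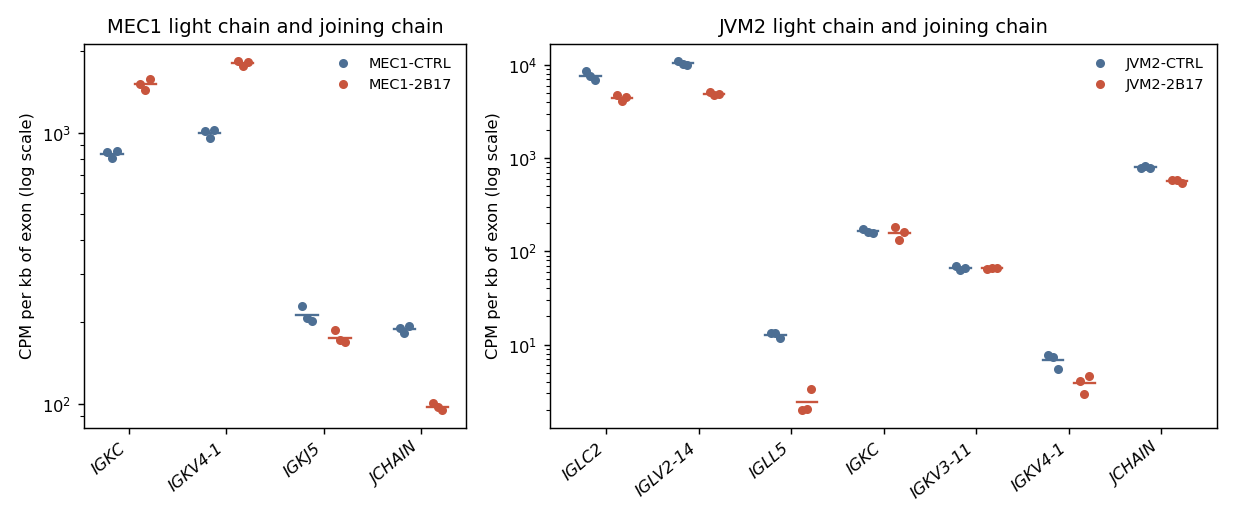
Level of light chain genes and *JCHAIN* in every library, in CPM per kb of exon on a log axis. Points are libraries and lines the mean of 3. In MEC1, *IGKC* and *IGKV4-1* lie higher in 2B17 and *JCHAIN* lower. In JVM2, *IGLC2*, *IGLV2-14*, *IGLL5* and *JCHAIN* lie lower in 2B17, and *IGKC* and *IGKV3-11* overlap.

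*IGHV3-20* (chr14:106210936-106211453) was the leading heavy chain V gene of both JVM2 arms. It was at 355, 349.6 and 349 CPM in JVM2-CTRL and 156, 124 and 147 CPM in JVM2-2B17, a 2.47-fold fall without overlap (log2 fold change -1.302 ± 0.08, adjusted *P* = 1.09e-07). Its share of the IGHV signal was 93.8% ± 0.32 and 89.1% ± 0.79. *IGHV1OR15-1* held 4.17% ± 0.55 and 8.11% ± 0.97 of that signal and did not pass the threshold (log2 fold change -0.26 ± 0.15, adjusted *P* = 0.199). *IGHV3-43* held 15, 35 and 31 counts against 15, 11 and 13 (log2 fold change -0.98 ± 0.32, adjusted *P* = 0.0393). Its call was lost without JVM2-CTRL replicate 2 (adjusted *P* = 0.153), JVM2-CTRL replicate 3 (0.142), JVM2-2B17 replicate 1 (0.095) or JVM2-2B17 replicate 3 (0.0692). The summed IGHV signal was 11.4% of that of *IGHM* in JVM2-CTRL and 10.7% in JVM2-2B17, per kb.

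*IGLL5* fell by more than any other member tested in JVM2, and the J segment *IGLJ1* lies inside it. *IGLL5* was at 17.8, 17.8 and 15.7 CPM in JVM2-CTRL and 2.63, 2.70 and 4.41 CPM in JVM2-2B17, a 5.33-fold fall (log2 fold change -2.41 ± 0.17, adjusted *P* = 4.83e-07). *IGLJ1*, printed above, held 10, 14 and 16 counts against 2, 0 and 0. By summed counts its level in JVM2-CTRL was 19.1 times that in JVM2-2B17 (exact 95% counting interval 4.94 to 163). Every JVM2-CTRL library was above every JVM2-2B17 library for both. *IGLL5* shares exon sequence with *IGLJ1*, where 97.4% of the 50-base stretches of *IGLJ1* recur, and with *IGLC1*, so the 2 counts are not independent. *IGLV3-16* held 4, 4 and 4 counts against 0, 1 and 0, a ratio of 11.4 (interval 1.69 to 489). *IGLJ1* and *IGLV3-16* were below the filter and are named after their values were seen.

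*JCHAIN* fell in JVM2-2B17 too. It was at 1199, 1268 and 1213 CPM in JVM2-CTRL and 907, 905 and 845 CPM in JVM2-2B17, without overlap (log2 fold change -0.47 ± 0.05, adjusted *P* = 3.05e-05). *JCHAIN* and *IGHG1* are thus the members tested in both lines that fell in both, and *IGHD* the member that rose in both.

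The difference between the lines was tested as the interaction of line and arm in 1 fit of the 12 libraries. Of 17 members tested there, 11 differed, 9 of them with the higher change in MEC1 and 2 with the lower, against 32% of all 15130 genes (15.3% higher and 16.7% lower). *IGHM* differed by 1.81 ± 0.09 on the log2 scale (adjusted *P* = 3.27e-12), since it rose in MEC1 and fell in JVM2, and so did *IGKV4-1* (1.69 ± 0.18, adjusted *P* = 4.03e-07). *IGKC*, which rose in MEC1 and did not pass in JVM2, differed by 0.91 ± 0.11 (adjusted *P* = 1.69e-06). *IGHG1* fell further in MEC1 (-1.88 ± 0.19, adjusted *P* = 1.32e-07), and *JCHAIN* did too (-0.48 ± 0.06, adjusted *P* = 6.95e-06). The rise of *IGHD* was not shown to differ (0.33 ± 0.14, adjusted *P* = 0.0866). The count of 11 fell to 7 without MEC1-2B17 replicate 1 or without MEC1-2B17 replicate 3.

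Most of the genes that fold and export antibody chains rose in MEC1-2B17 and most fell in JVM2-2B17. Of 28 such genes, all tested in both lines, 24 rose and 2 fell in MEC1-2B17 (median log2 fold change 0.36), which is 92.9% called beside 41.7% of all genes. In JVM2-2B17 none rose, 19 fell and 9 did not pass (median -0.38), which is 67.9% called beside 29.3%. The interaction passed for 27 of the 28, 26 with the higher change in MEC1, beside 32% of all genes. In MEC1, *LMAN1*, a cargo receptor from the endoplasmic reticulum, and *SDF2L1*, a partner of the chaperone BiP, both rose by 0.71 on the log2 scale (SE 0.04 and 0.09). *ERP44*, a retention factor of IgM assembly, fell by 0.66 and *TXNDC5*, a disulfide isomerase, by 0.25. In JVM2, *TXNDC5* fell by 1.01 and *MZB1*, a cochaperone of IgM, by 0.80. *HSPA5*, which encodes BiP, the chaperone that binds free heavy chains, was at 337, 356 and 395 CPM against 406, 395 and 407 CPM in MEC1 (log2 fold change 0.15 ± 0.05, adjusted *P* = 0.0118) and at 471, 398 and 494 CPM against 276, 283 and 282 CPM in JVM2 (log2 fold change -0.70 ± 0.07, adjusted *P* = 1.88e-05).

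**Figure D5:**
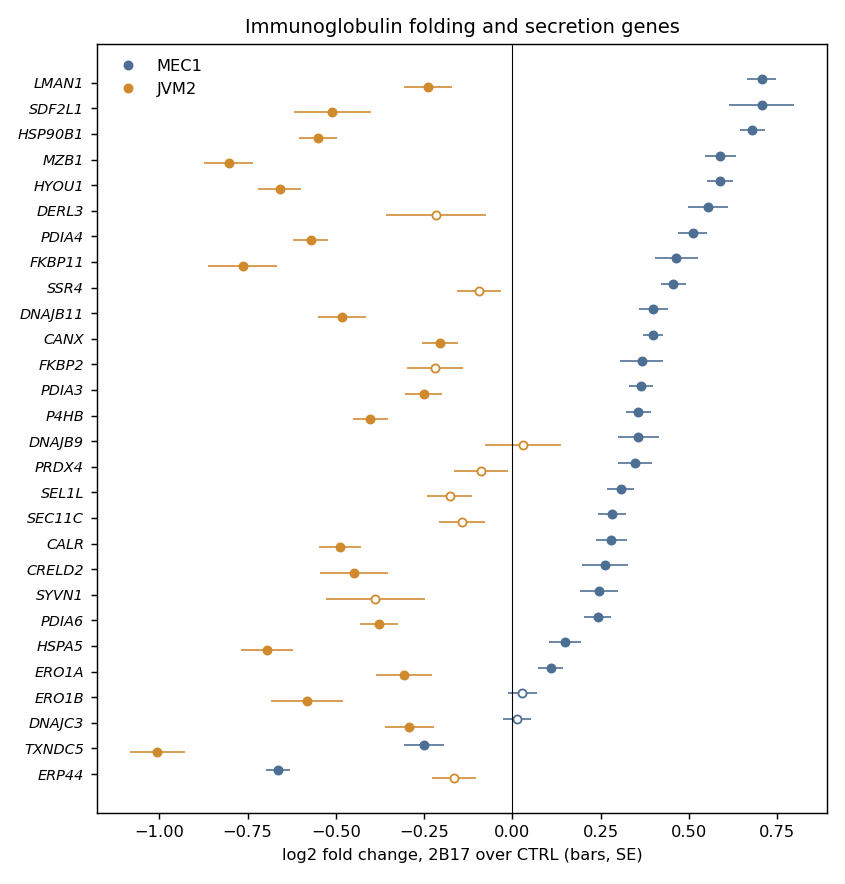
Log2 fold change of 2B17 over CTRL (bars, SE) for the 28 genes of immunoglobulin folding and secretion in MEC1 and JVM2. Filled points passed the threshold. In MEC1, 24 lie to the right of 0 and passed, and in JVM2, 19 lie to the left of 0 and passed.

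Genes of transcription and RNA processing of the immunoglobulin loci were mixed. In MEC1, 8 rose and 11 fell of 30 tested, with a median of -0.02, and in JVM2, 4 rose and 6 fell of 29, with a median of -0.02. The shares called were 63.3% in MEC1, beside 41.7% of all genes, and 34.5% in JVM2, near the 29.3% of all genes. *ZNF318*, a factor needed to make IgD from the joint mu and delta transcript, was at 26.46, 27.95 and 25.99 CPM against 36.8, 35.0 and 36.3 CPM in MEC1 (log2 fold change 0.43 ± 0.05, adjusted *P* = 1.12e-06). In JVM2 it was at 128, 125 and 137 CPM against 288, 252 and 300.2 CPM (log2 fold change 1.11 ± 0.07, adjusted *P* = 2.69e-07). It thus rose in both lines, as *IGHD* did. *ELL2*, an elongation factor that favours the secreted form of the heavy chain, rose by 0.56 in MEC1 and fell by 0.29 in JVM2. *IRF4*, a regulator of plasma cell differentiation, rose by 1.03 in MEC1 and did not pass in JVM2 (log2 fold change 0.05 ± 0.05). *PRDM1*, another such regulator, fell by 1.46 on the log2 scale in MEC1 (SE 0.17) and fell by 1.58 in JVM2 (SE 0.08). *BCL6*, a repressor of *PRDM1*, fell by 0.97 in MEC1. *XBP1*, which drives secretory genes, did not pass in MEC1 (log2 fold change 0.008 ± 0.037) and fell by 0.39 in JVM2. *IRF8* and *MEF2C*, which encode B cell transcription factors, fell in MEC1 by 0.25 and 0.22 and rose in JVM2 by 0.40 and 0.37. *SPIB* did likewise (-0.15 and 0.31), but other B cell factors of the list did not. *PAX5* fell by 0.17 in MEC1 and did not pass in JVM2 (log2 fold change -0.12 ± 0.10). *IKZF1* fell by 0.40 in MEC1 and did not pass in JVM2 (-0.34 ± 0.12), and *EBF1* passed in neither line. *POU2F2*, which encodes the octamer-binding OCT2, fell by 0.42 in MEC1 (SE 0.05) and fell by 0.45 in JVM2 (SE 0.16), the latter with an adjusted *P* of 0.0476. *POU2AF1*, its coactivator, rose by 0.09 in MEC1 (SE 0.03, adjusted *P* = 0.0496) and had a log2 fold change of -0.02 ± 0.14 in JVM2 (adjusted *P* = 0.917). The JVM2 count of 10 fell to 6 without JVM2-CTRL replicate 2.

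Of the genes of class switch and V(D)J recombination, 7 rose and 9 fell of 28 in MEC1, and 5 rose and 3 fell of 28 in JVM2. The shares called were 57.1% beside 41.7% of all genes in MEC1 and 28.6% beside 29.3% in JVM2, where the list is thus at the background. In MEC1 the end-joining ligase *LIG4* fell by 0.52 and its partner *XRCC4* rose by 0.31, and *RAG1*, which cuts at recombination signals, held 1 to 6 counts per library. In JVM2 the kinase *ATM* rose by 0.50. The JVM2 count of 8 rests in part on small changes. It fell to 4 without JVM2-CTRL replicate 1, JVM2-CTRL replicate 3 or JVM2-2B17 replicate 1, and to 3 without JVM2-CTRL replicate 2.

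Among partners of the B cell receptor, 3 rose and 4 fell of 10 tested in MEC1, and 2 rose and 3 fell of 9 in JVM2, which is 70% called beside 41.7% of all genes in MEC1 and 55.6% beside 29.3% in JVM2. The JVM2 count of 5 fell to 3 without JVM2-CTRL replicate 1 or 3. *CD79A*, the signalling chain that pairs with membrane immunoglobulin, rose by 0.28 in MEC1 (SE 0.04, adjusted *P* = 5.87e-06) and fell by 0.39 in JVM2 (SE 0.11, adjusted *P* = 0.0175), the direction of *IGHM* in each. *CD79B*, its partner, fell by 0.12 in MEC1 (adjusted *P* = 0.0045) and had a log2 fold change of -0.10 ± 0.07 in JVM2 (adjusted *P* = 0.359). *CR2*, the complement receptor CD21, rose by 0.82 in MEC1. In JVM2 it fell by 5.56, from 16.0, 13.8 and 16.2 CPM to 0.272, 0.450 and 0.226 CPM. *PIGR*, the receptor that carries polymeric immunoglobulin across epithelia, fell by 2.21 in MEC1 and had a log2 fold change of 0.08 ± 0.06 in JVM2.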

How the data were processed

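RNA of 12 samples was measured, 3 for each arm (CTRL, 2B17) of each line, and samples were grouped by their labels. The authors depleted ribosomal RNA, sequenced paired ends, trimmed reads and aligned them to hg38. The submitters' processing notes name Trimmomatic, TopHat2 2.0.14, HTSeq, DESeq2 and edgeR, while the gene annotation and strand setting are not given in the sources used here. The authors deposited raw counts per Ensembl gene for each line, and only these counts were used. The score columns deposited by the authors, counts divided by a factor per sample and rounded, and their columns of log2 fold change, log2 mean CPM, p-values and adjusted p-values (q values) were not.

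Each line was fitted alone with edgeR 4.0.16 in R 4.3.3 (filterByExpr, TMM, quasi-likelihood test), with Benjamini-Hochberg adjustment over every gene tested there. The difference between lines was the interaction of line and arm over the genes in both tables. CPM use TMM-scaled library sizes, and per-kb values divide by the union exon length of GENCODE v44. A single value was compared by the exact two-sided permutation test. Where an arm held 1 to 3 counts in all, a ratio with an exact counting interval replaces the fitted change. The script was tested on simulated data. Replicates of an arm differed beyond counting error (mean chi-square per gene 2.23 to 8.46, where 1 is counting error alone), so none was counted as a repeat.

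Named are all constant genes, *JCHAIN* and *IGLL5*, in each line the 3 highest IGHV, IGKV and IGLV genes per kb, other members past the threshold with a mean count of at least 10, and from each of 4 lists the 2 largest rises and falls past the threshold whose arms did not overlap and whose average log2 CPM was 1 or more, not all of which are described, plus fixed genes such as *ZNF318*, *ELL2*, *POU2AF1*, *POU2F2*, *CD79A* and *CD79B*. *HSPA5*, *RAG1* and the genes said to be so were named after their values were seen. *LIG4*, *MEF2C*, *XBP1*, *SPIB*, *PAX5*, *IKZF1* and *EBF1* are described outside this rule, with their values known. For some genes that met it in 1 line the value in the other line is given too, as for *PRDM1* in MEC1 (average log2 CPM 0.81). Some named genes are not reported here. Members and lists were chosen with earlier results of these data known, and the lists overlap (*MZB1*, *DERL3*, *XBP1* and *PRDM1* are also plasma cell markers). Alternatives were DESeq2 1.42.0, edgeR's exact test, both together, RLE or no scaling factors, library sizes without immunoglobulin genes, other count filters, a replicate block, and each replicate left out. Leaving out both libraries low in *IGHV4-59* was added after the data were seen.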

Additional observations from a re-analysis of the deposited data

Results flagged for a closer look

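The change of 11 immunoglobulin genes differed between the lines by the interaction of line and arm (edgeR's quasi-likelihood test, adjusted over 15130 genes), given here as the log2 fold change in MEC1 minus that in JVM2. For *IGHM* (1.81) and *IGKV4-1* (1.69) every 2B17 library lay above every CTRL library in MEC1 and below it in JVM2. *IGHV3-30* (3.56 ± 1.00, adjusted *P* = 0.00965) had the same order of scaled levels, but held 0 to 7 counts per library. It held 2, 1 and 0 counts in MEC1-CTRL and 3, 5 and 2 in MEC1-2B17. By summed counts, its level in MEC1-CTRL was 0.279 times that in MEC1-2B17, with an exact counting interval of 0.0493 to 1.08. That interval includes 1, so a rise of *IGHV3-30* in MEC1 was not shown. For *IGKC* (0.91), *IGHV4-31* (1.93 ± 0.44, adjusted *P* = 0.00188), *IGHV5-78* (1.84 ± 0.66, adjusted *P* = 0.0376) and *IGHJ3P* (1.32 ± 0.46, adjusted *P* = 0.0311) the arms were apart in MEC1 and overlapped in JVM2. *IGHG1* (-1.88) and *JCHAIN* (named *IGJ* in the tables, -0.48) fell in both lines and further in MEC1. *IGLL5* had 1.44 ± 0.51 (adjusted *P* = 0.0353), with 39 counts in MEC1-CTRL and 18 in MEC1-2B17 in all. The value of *IGHV1-69-2* (5.85 ± 2.02, adjusted *P* = 0.0337) is no bound, since JVM2-2B17 held 0 counts and JVM2-CTRL 2, 1 and 7. Set against a floor of 3 counts over the arm, *IGHV1-69-2* was 3.18-fold lower in JVM2-2B17. That value takes no account of counting error and rests mostly on the 7 counts of JVM2-CTRL replicate 3. The Ensembl identifier of that row carries the name IGHV1-69D in GENCODE v44.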

How the results depend on the processing

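In MEC1 the number of members called was 17 to 23 under the 10 alternatives to the 21 reported and 19 to 21 with 1 library left out. In JVM2 it was 8 to 14 under 9 alternatives and 8 to 12 with 1 library left out, against 10. The interaction gave 11 to 12 calls under 4 alternatives and 7 to 12 with 1 library left out. Neighbours were counted here over the heavy, kappa and lambda loci together. Their widest range (3 Mb in place of 1 Mb) gave 65 calls in MEC1 against 27 and 26 in JVM2 against 14, by construction. DESeq2 called 5 genes of class switch and V(D)J recombination in JVM2 against 8, and with 1 library left out this count was 3 to 9. The count for transcription and RNA processing in JVM2 was then 6 to 13, and that for receptor partners 3 to 7. The rise in the share of *IGKV4-1* in MEC1 was 0.188 percentage points on raw counts against 0.278 per kb. The cause of these moves was not tested. Of the values per named member and alternative, 492 kept their direction and side of the threshold, 25 lost a call, 2 gained one and 2 turned sign without a call, namely *IGKV3-11* in JVM2 without JVM2-CTRL replicate 1 (log2 fold changes of -0.0517 to 0.0231 with 1 library left out) and *IGKC* in JVM2 without JVM2-2B17 replicate 2 (-0.168 to 0.0711). DESeq2 did not call *IGHE* (adjusted *P* = 0.0924) and *IGLV6-57* (0.0575) in MEC1 or *IGHV3-43* (0.0872) and *IGKV4-1* (0.0714) in JVM2. A pairing by replicate number was not shown. The deviations of same-numbered libraries correlated at -0.04, -0.01 and 0.04 in MEC1 and 0.09, 0.12 and -0.01 in JVM2. Those of different-numbered libraries correlated at -0.0749 to 0.0853 in MEC1 and -0.117 to 0.0623 in JVM2. With 3 libraries per arm these values cannot exclude a weak pairing. With the replicate block 21 members were called in MEC1, 10 in JVM2 and 12 in the interaction. With it 26 and 20 folding genes, 16 and 8 of class switch, 18 and 12 of transcription, 7 and 5 receptor partners and 28 and 14 neighbours were called in MEC1 and JVM2. Members below the filter on low counts, 18 in MEC1 and 16 in JVM2, had too few counts for the test.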
